A study of Mus musculus with 16 samples.

Results

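The clustered protocadherins are a family of cell adhesion genes that lie in 3 clusters, named α, β and γ, side by side on chromosome 18 of the mouse. The members were all genes on that chromosome whose symbols start with *Pcdha*, *Pcdhb* or *Pcdhg* in the GENCODE M21 annotation of mm10. This gave 58 genes, 14 in the α, 22 in the β and 22 in the γ cluster, beside 20807 protein-coding genes on chromosomes 1 to 19. All 58 lie on the plus strand. Of these, 57 are annotated as protein-coding and *Pcdhgb8* as a polymorphic pseudogene, and the symbol *Pcdha11* is given to 2 gene records.

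In the α and γ clusters each gene has a promoter and a large variable first exon of its own, which is spliced to constant exons shared by the whole cluster, whereas the β genes are single-exon genes. The genes are best known from neurons, where each cell uses its own small set of variable promoters through looping by CTCF and cohesin, and the different proteins let a neuron recognise its own branches. The last genes of the α and γ clusters, called C-type, follow other rules of promoter use. In many other tissues the clusters are kept silent by DNA methylation and by SMCHD1.

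Open chromatin was profiled by ATAC-seq, which reads out where a transposase can reach the DNA, in sorted thymocytes of 4 wild-type C57BL/6J mice, 9 weeks old. The 4 groups followed development in the thymus. DN cells were sorted as Lin-CD4-CD8-CD3-, DP cells as CD4+CD8+, and the mature SP4 and SP8 cells as CD3+ cells with CD4 or CD8 alone. No group carried a transgene or a treatment, and each of the 16 libraries came from 1 mouse and 1 stage. The authors pooled the 4 mice of a stage before peak calling, so each stage has 1 list of peaks without replicate error, and no test between stages was possible. The DN list held 150139 peaks, the DP list 107110, the SP4 list 115074 and the SP8 list 104411. The lists do not record the depth of the libraries, which the authors reduced to the median depth before pooling.

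Of 12 thymocyte genes, 10 had a promoter peak in DN, 10 in DP, 12 in SP4 and 11 in SP8 cells. In every list 10 of the 12 were called (83.3%, 95% Wilson interval 55.2 to 95.3%), beside 56.8% of all protein-coding genes. The interval contains that share, so the count checks neither the cell type nor the stage labels. Among lists of 10 markers each for other cells, neuron promoters were called 7 times at DN and 4 times at each later stage, and those of fibroblasts 7, 5, 4 and 5 times in the order DN, DP, SP4, SP8. Endothelial promoters were called 6, 5, 3 and 4 times, B cell promoters 6, 5, 5 and 5, myeloid promoters 6, 2, 2 and 3, and thymic epithelial promoters 5, 5, 4 and 5 times. Over all protein-coding genes, 65.7% of promoters were called at DN and 59.6% to 61.3% later. The neuron genes *Snap25*, *Stmn2* and *Gad1* had no promoter peak at any stage, and *Nefl*, *Rbfox3* and *Syt1* had one at DN alone. The rest of the neuron list, *Elavl3*, *Map2*, *Tubb3* and *Slc17a7*, had one at all 4 stages.

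Open chromatin at the protocadherins was concentrated in the γ cluster, and at DP, SP4 and SP8 it was all but missing from the α and β clusters. The window examined ran from 50 kb before the first α gene to 50 kb after the last γ gene, on chromosome 18 from 36880184 to 37891873. It held 55 DN peaks (95% Poisson interval 41.4 to 71.6), 33 DP peaks (22.7 to 46.3) and 39 peaks each at SP4 and SP8 (27.7 to 53.3). These intervals cover counting error only. Per 10000 peaks of the list this was 3.66 (DN), 3.08 (DP), 3.39 (SP4) and 3.74 (SP8), and the intervals of these shares overlapped. With as many peaks taken from the DN list as from the shortest list, the DN count was 35, below the SP8 count of 39.

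The α cluster spans 257 kb, from 36930184 to 37187661. It held 7 peaks at DN and 0 at DP, SP4 and SP8. The β cluster spans 260 kb, from 37264938 to 37524479, and held 3 peaks in DN, 0 in DP, 0 in SP4 and 1 in SP8 cells. The γ cluster is the shortest, with 180 kb from 37661793 to 37841873, and held 32 peaks in DN, 23 in DP, 26 in SP4 and 27 in SP8 cells. With lists of equal length these counts were 19, 23, 23 and 27, so the DN count then was the lowest instead of the highest. Of the 3 clusters, it alone held several peaks in each list. In pooled cells, an open site in fewer cells and a less open site in every cell cannot be told apart.

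Expressed as a density, the γ cluster held 178 (DN), 128 (DP), 144 (SP4) and 150 (SP8) peaks per Mb. Over chromosomes 1 to 19 the density was 62.7, 44.7, 48.03 and 43.6 peaks per Mb in the same order, and over chromosome 18 it was 53.7, 37.6, 39.8 and 36.3. The 50 kb downstream flank held 140 (DN), 140 (DP), 160 (SP4) and 160 (SP8) peaks per Mb, from 7 or 8 peaks per list. A density above the chromosome averages was therefore not particular to the γ cluster. The DN density of the α cluster was 27.2 peaks per Mb and that of the β cluster 11.6, below that of chromosome 18 as a whole.

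**Figure D1:**
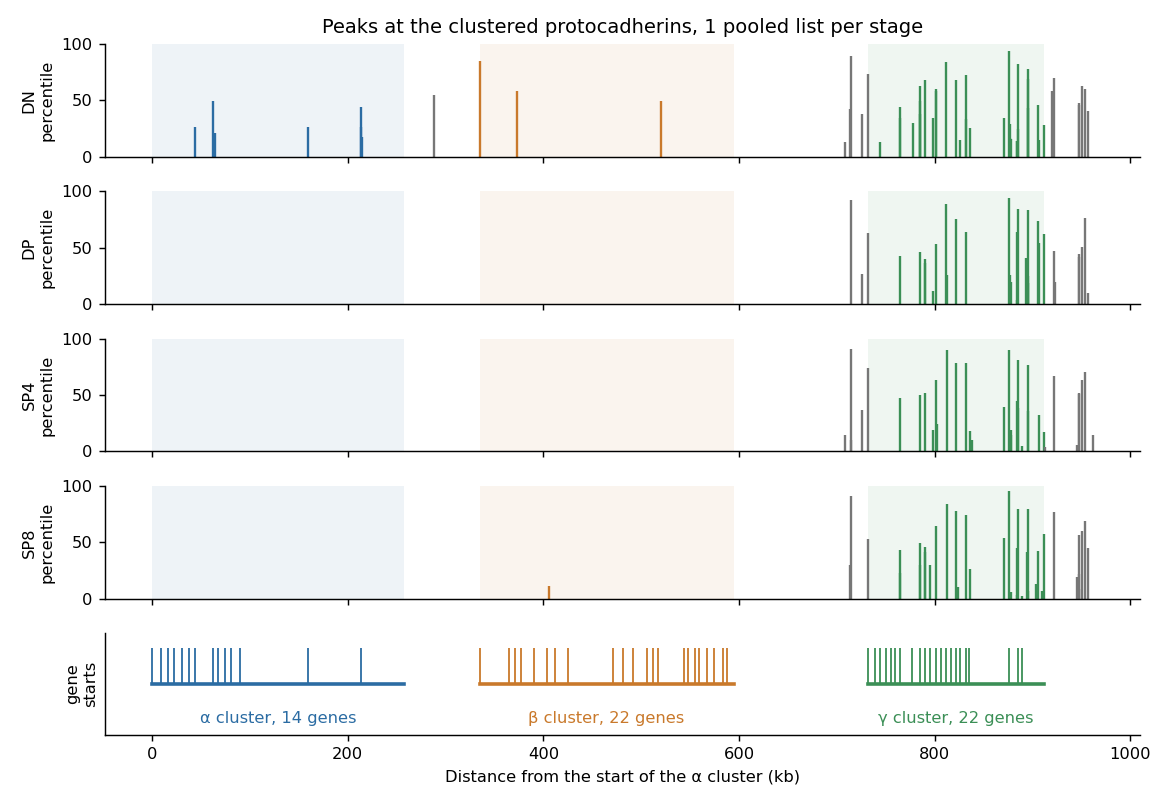
Peaks of the 4 stages along the 3 protocadherin clusters, plotted as the distance from the start of the α cluster in kb; the height of a line is the percentile of the peak by fold enrichment within its list, colours mark the cluster (grey, outside the spans), and the lowest panel shows the start of each gene. The α and β spans hold 7 and 3 lines at DN and 1 line in all at the later stages, whereas the γ span holds 23 to 32 at every stage.

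The empty stretch at the later stages was long, though by length it ranked only 390 (DP), 395 (SP4) and 689 (SP8) among the gaps of its list. At DP, no peak was called from 36803145 to 37643906, a gap of 841 kb that contains the start sites of 40 protein-coding genes. Of 107091 gaps between neighbouring DP peaks, 9 contained more, and 36 of the 40 start sites are those of the α and β members themselves. At SP4 the gap was 835 kb with 39 start sites, and at SP8 it was 532 kb with 23, where 11 and 31 gaps of these lists contained more. At DN, by contrast, the longest gap in the same block was 188 kb with 8. The block from the start of the α to the end of the β cluster held 11 peaks in DN, 0 in DP, 0 in SP4 and 1 in SP8 cells. Stretches of the same length with at least 10 protein-coding start sites held a median of 80, 58, 60 and 55 peaks, and 10.5%, 4.71%, 4.71% and 6.99% of these 658 stretches held as few peaks as this block or fewer. Of all 3879 stretches of that length, with or without genes, 37.5%, 21.1%, 20.7% and 27.8% did. The comparison with stretches rich in start sites was chosen after the values of the block were seen.

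**Figure D2:**
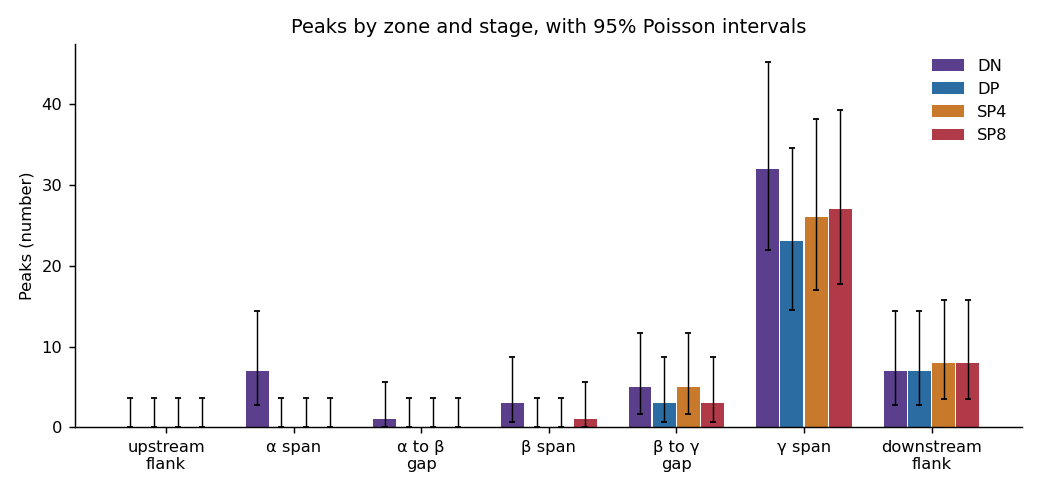
Number of peaks in each zone of the window by stage, with 95% Poisson intervals for counting error; bars are the 4 pooled lists in the order DN, DP, SP4, SP8. The γ span reaches 32, 23, 26 and 27 peaks, while the α span holds 7 at DN and 0 at each later stage.

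By position, 17 of the 55 DN peaks overlapped a protocadherin promoter, defined as the 200 bp upstream of a transcriptional start site (TSS). The count was 9 of 33 at DP and 12 of 39 at SP4 and at SP8. A further 20 DN, 8 DP, 12 SP4 and 9 SP8 peaks lay in exons, and 15, 13, 10 and 16 in introns. Only 1 DN and 2 SP4 peaks lay between genes, and the promoters of other genes took 2, 3, 3 and 2 peaks. In the γ span alone, promoters of its own genes took 13 of 32 DN, 8 of 23 DP, 11 of 26 SP4 and 11 of 27 SP8 peaks. Every peak of the α and β spans lay at a promoter or in an exon of a member, with 2 promoter and 5 exon peaks in the α span and 1 promoter and 3 exon peaks in the β span.

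Counted by gene, 15 of the 58 members had a promoter peak in DN, 9 in DP, 11 in SP4 and 12 in SP8 cells. This was 25.9% of the members at DN (95% Wilson interval 16.3 to 38.4%), 15.5% in DP, 18.97% in SP4 and 20.7% in SP8 cells. Over all protein-coding genes the share was 65.7% (DN), 61.3% (DP), 59.6% (SP4) and 59.7% (SP8). At one stage or more, 17 members (29.3%) were called, against 67.5% of all genes, and at all 4 stages 9 members (15.5%), against 56.8%. The other 41 members, 12 of the α, 21 of the β and 8 of the γ cluster, had no promoter peak in any list.

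The shares differed from cluster to cluster. Of the 14 α promoters 2 were called at DN and 0 later, and of the 22 β promoters 1 was called at DN and 0 later. Of the 22 γ promoters, 12 were called at DN (54.5%, Wilson interval 34.7 to 73.1%) and 12 at SP8, 11 at SP4 (50%, 30.7 to 69.3%) and 9 at DP (40.9%, 23.3 to 61.3%). The background share lay inside the γ interval at DN, SP4 and SP8 and just above its upper end at DP (61.29% against 61.27%). It lay above the upper end of the α and β intervals at every stage.

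**Figure D3:**
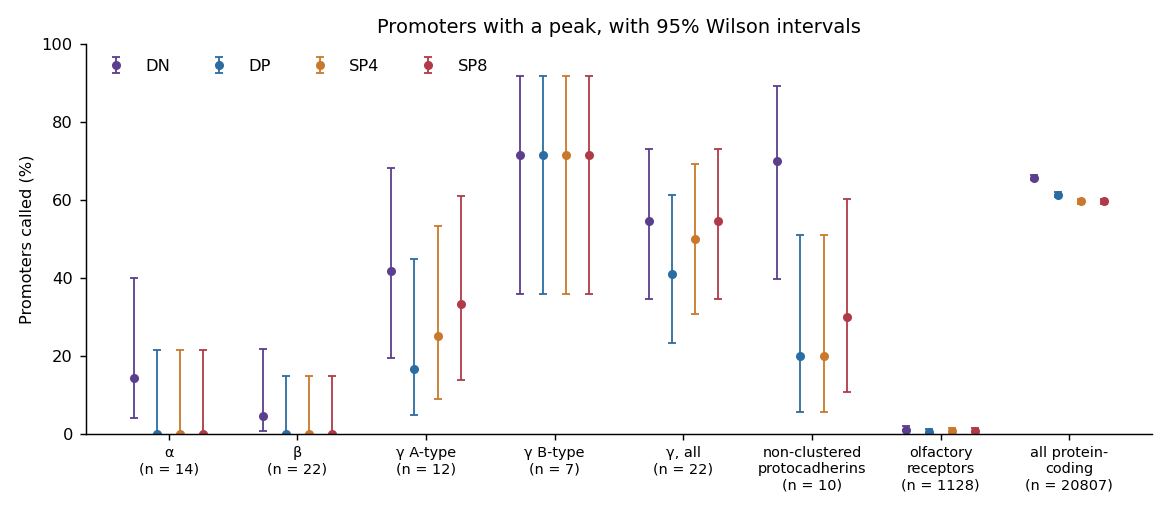
Share of promoters with a peak at each stage, in percent, for groups of protocadherins, olfactory receptor genes and all protein-coding genes; points are the 4 pooled lists and bars are 95% Wilson intervals for counting error. The α and β genes are at 14.3% and 4.55% at DN and at 0 later, the γ B-type genes at 71.4% at every stage, and all protein-coding genes between 59.6% and 65.7%.

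Among the clustered protocadherins, the highest promoter peak in the DN, DP and SP8 lists was that of *Pcdhgc3*, a C-type γ gene that is in wide use outside the nervous system. Heights are percentiles of fold enrichment over local background, ranked within the list of the stage. The *Pcdhgc3* peak stood at percentile 93.4 in DN, 94.2 in DP, 90.3 in SP4 and 95.3 in SP8 cells, with a fold enrichment of 18.9, 19.9, 18.1 and 23.3. It was 681 to 726 bp wide, and the merged region ran from 37805974 to 37806709. The long noncoding gene *BC037039* is annotated antisense to its first exon, and ATAC-seq does not tell the strands apart. Its neighbour *Pcdhgc4*, also C-type, was called at percentile 82.1 in DN, 84.1 in DP, 80.7 in SP4 and 79.7 in SP8 cells. The last C-type gene, *Pcdhgc5*, was lower than both, with a peak at SP4 (percentile 4.53) and SP8 (2.55) and none at DN or DP.

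The B-type γ genes were called at the same 5 of 7 promoters in each list, namely *Pcdhgb4*, *Pcdhgb5*, *Pcdhgb6*, *Pcdhgb7* and *Pcdhgb8*. *Pcdhgb6* was the highest of them, at percentile 84.4 in DN, 88.8 in DP, 90.3 in SP4 and 84.3 in SP8 cells. *Pcdhgb7* stood at 68.3, 75.7, 78.1 and 77.7 in the same order, and *Pcdhgb8* at 72.3, 64.3, 78.5 and 74.0. The same 3 genes led the B-type promoters at each stage, and the lists hold no replicate error against which their order could be tested. *Pcdhgb5* was at 58.6 in DN, 53.1 in DP, 63.6 in SP4 and 64.6 in SP8 cells. *Pcdhgb4* was highest at DN, at 67.9, and stood at 39.8 in DP, 51.7 in SP4 and 45.6 in SP8 cells.

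The number of A-type γ genes called varied from list to list, with 5 of 12 promoters in DN, 2 in DP, 3 in SP4 and 4 in SP8 cells. Only *Pcdhga1* and *Pcdhga7* were called at all 4 stages. *Pcdhga1*, the first gene of the γ cluster, stood at percentile 73.7 in DN, 62.96 in DP, 74.2 in SP4 and 52.6 in SP8 cells, and the middle of its peak lay just upstream of the γ span. *Pcdhga7* stood at 63.1, 46.0, 49.6 and 49.4. *Pcdhga5* was called at DN (44.1), SP4 (47.4) and SP8 (23.0). At DP its promoter had no peak, but a region within its first exon, centred 200 bp after the gene start, was called at DN (34.3), DP (43.1) and SP8 (43.6). *Pcdhga3* (12.9) and *Pcdhga11* (14.8) were called at DN alone and *Pcdhga8* (30.3) at SP8 alone, all with peaks of 100 to 134 bp. The γ promoters without a peak in any list were those of 6 A-type and 2 B-type genes.

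**Figure D4:**
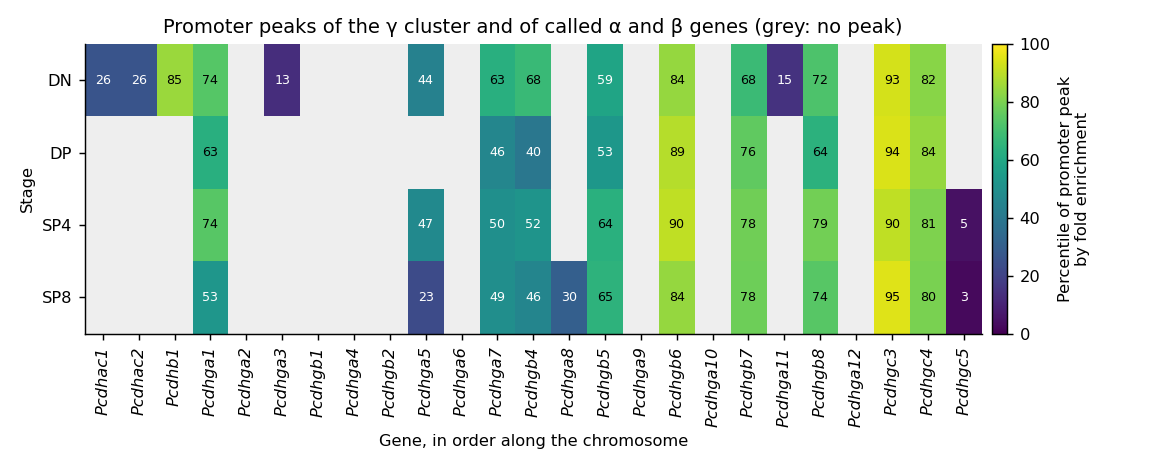
Percentile by fold enrichment of the promoter peak of each γ gene, and of the 3 called α and β genes, at each stage; grey cells have no peak. *Pcdhgc3* is highest in every list except SP4, where *Pcdhgb6* is level with it at 90.3, and the only filled cells among the α and β genes are at DN.

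The promoter peaks of called members stood lower in their lists than those of all genes. Their median percentile was 67.9 in DN, 64.3 in DP, 74.2 in SP4 and 58.6 in SP8 cells. Over the promoter peaks of all protein-coding genes it was 80.5, 82.8, 81.7 and 82.0.

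The open chromatin of the α cluster was seen at DN alone and was low. Both promoters called belong to the C-type genes *Pcdhac1* and *Pcdhac2*, each at percentile 26.0 with a fold enrichment of 3.99 and a width of 107 and 100 bp. None of the other 12 α promoters was called. *Pcdhac2* had 2 further DN regions in its first exon, at percentiles 44.1 (524 bp, from 37143640 to 37144163) and 17.1. The remaining 3 DN regions lay in exons of *Pcdha7* (26.0, from 36974293 to 36974470) and *Pcdha8* (49.1, from 36992845 to 36993030, and 21.6, from 36994631 to 36994748). The 7 regions of the α cluster were 7 of 7 DN-only, and with lists of equal length 2 of the 7 DN peaks were left and neither C-type promoter was called. With promoters of 500 bp on either side of a TSS, 4 α promoters were called at DN.

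Beyond the constant exons of the α cluster, a DN-only region lay between genes from 37218201 to 37218459, at percentile 55.2 and 30.5 kb after the end of the α span. A neuronal enhancer of the α genes is known downstream of the cluster, and whether this region is that enhancer was not tested. No peak was called in this gap at DP, SP4 or SP8.

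In the β cluster the DN peak at the promoter of *Pcdhb1*, the first gene of the cluster, was the highest. It was 454 bp wide, from 37264868 to 37265321, with a fold enrichment of 13.5 at percentile 85.2, and no peak was called there later. The 2 other DN regions lay in exons of *Pcdhb3* (percentile 58.6, from 37303117 to 37303281) and *Pcdhb14* (49.1, from 37449764 to 37450097). Their middles lay 2400 and 2274 bp after the gene start. The only later peak of the α and β clusters lay in the exon of *Pcdhb6* at SP8, at percentile 11.3. All 3 DN peaks of the β cluster were also among the DN peaks of the list cut to equal length. Promoters of marker genes of other cells were also called more often at DN than at any later stage in 5 of the 6 lists given above, the thymic epithelial list being the other. In the B cell and endothelial lists the lead over DP was 1 promoter, at percentile 3.69 (*Igll1*) and 24.2 (*Plvap*). The marker lists were not counted in peak lists of equal length, and the DN list is the longest. The share over all protein-coding promoters was also highest at DN. The part of other cells in the DN-only regions of the α and β clusters was not tested.

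Merging the 4 lists gave 62 regions in the window out of 185978 in all. Of these, 19 (30.6%, Wilson interval 20.6 to 43.0%) were called at all 4 stages, against 34.1% of all regions. DN-only regions numbered 16 (25.8%, 16.6 to 37.9%), against 21.7% of all regions. Both shares were near the background, but the clusters differed in them. All 7 α regions were DN-only, the 4 β regions comprised 3 DN-only and 1 SP8-only, and of the 36 γ regions 12 were called at all 4 stages, 12 at 2 or 3 and 12 at a single stage. The single-stage γ regions comprised 4 each at DN, SP4 and SP8, and none was DP-only.

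The highest γ regions were the promoters of *Pcdhgc3* and *Pcdhgb6* and that of *Pcdhgc4*. Next to these, a region of 720 bp at a constant exon shared by the γ genes, from 37824936 to 37825655, was called at every stage at percentiles between 76.9 and 83.5. It was chosen after its values were seen. Single-stage γ regions were lower. At SP4 the 3 highest lay in the first exons of *Pcdhgb5* (24.0) and *Pcdhgc3* (14.2) and at a start site of the noncoding transcript *Gm26672* (10.5). At SP8 the 3 highest in the spans were the promoter of *Pcdhga8* (30.3), an intron region from 37833924 to 37834023 (12.8) and the *Pcdhb6* exon region.

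Between the β and γ clusters, *Taf7*, a general transcription factor gene, was called at percentile 89.6 in DN, 91.9 in DP, 90.9 in SP4 and 90.9 in SP8 cells. The mitochondrial carrier gene *Slc25a2* beside it had a low exon region at DN (12.9) and SP4 (14.8). The noncoding gene *3222401L13Rik* was called at DN (37.9), DP (27.02) and SP4 (36.3), and a start site of the noncoding transcript *Gm38182* inside the γ span at DP (41.3) and SP8 (41.1). After the γ cluster, *Diaph1*, which encodes a formin, was called at its promoter, which lies beyond the window, in all lists at percentiles 75.5 to 79.7. Its introns held the highest regions of the downstream flank. That from 37852139 to 37852765, 10.3 kb after the γ span, stood at 69.8 in DN, 47.2 in DP, 66.5 in SP4 and 76.9 in SP8 cells. Those from 37883453 to 37883835 and from 37880096 to 37880523 were also called in all 4 lists, at percentiles 59.7 to 76.2 and 50.8 to 63.3. The upstream flank held no peak at any stage. Single-stage regions of the downstream flank were led by a DN-only region in a *Diaph1* intron, from 37849548 to 37849737 at percentile 57.9, and it also held an SP4-only region in a *Diaph1* exon, from 37891703 to 37891802 at percentile 14.8.

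Of 38 merged regions whose middle lay between 500 bp before and 3000 bp after the nearest gene start, 18 lay within 200 bp of it, and 9 of these 18 were called at all 4 stages. Of the other 20, 1 was called at all 4 stages, a region in the first exon of *Pcdhgc3* at percentiles 5.82 to 19.9. Of the 10 regions of the γ span outside these limits, 3 were called at all 4 stages. Genes with closely spaced regions, such as *Pcdhgc3*, contribute several of these points.

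**Figure D5:**
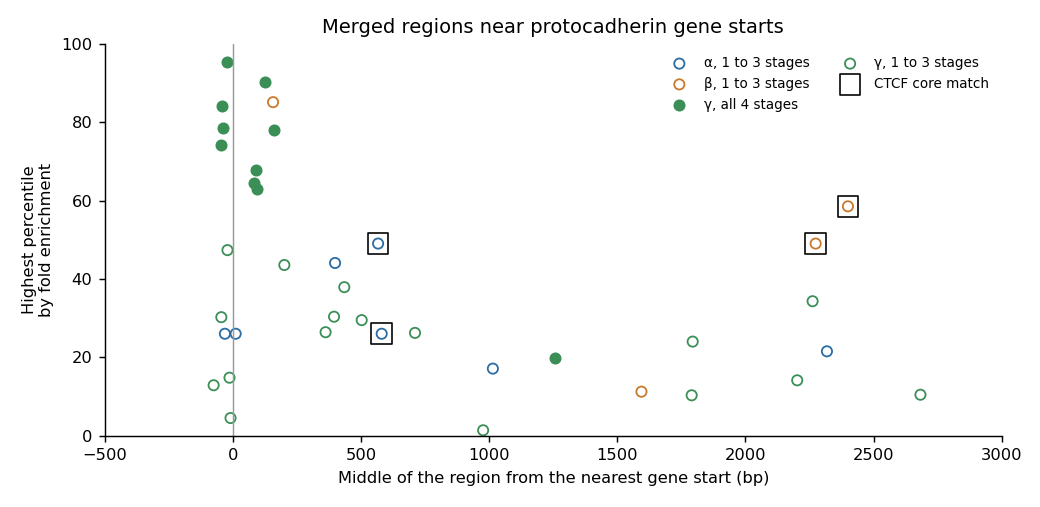
Merged regions by the distance of their middle from the nearest protocadherin gene start, in bp, against the highest percentile by fold enrichment over the stages; filled points were called at all 4 stages, open points at 1 to 3, and squares mark regions with a match to the core CTCF consensus. The filled points are γ regions, 9 of the 10 within 200 bp of a gene start, and the 4 squares are α and β regions seen at DN alone.

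Sequence features of the clusters were read from mm10. CTCF, the looping factor of these clusters, binds a long motif, and its core consensus was searched on both strands without mismatch. Of 62 window regions, 6 held a match (9.68%, Wilson interval 4.51 to 19.5%), against 3.24% of all 185978 regions. In the block of the α and β clusters 4 of 12 regions held one, namely the DN-only exon regions of *Pcdha7*, *Pcdha8*, *Pcdhb3* and *Pcdhb14*, and in the γ span 0 of 36. The other 2 were *Diaph1* intron regions. Window regions had a median width of 186.5 bp, and all regions of 231 bp.

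Within 2500 bp downstream of the gene start, which takes in a variable exon, 17 of the 58 members held a match, against 1.72% of all protein-coding genes. These were 6 of 14 α genes, 11 of 22 β genes and 0 of 22 γ genes. The matches lay 537 to 581 bp after the gene start in the α genes and 2271 to 2412 bp after it in the β genes, a near-constant place within each cluster. At DN, 4 of the 17 matches lay inside a peak, and 0 did at DP, SP4 or SP8. A match is a description of the sequence only, and members of a cluster share much of theirs. From 250 bp before to 50 bp after the gene start, 0 members and 0.572% of all genes held a match, which says nothing of weaker sites.

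CpG content overlapped between called and uncalled promoters. In the same window of 301 bp, the median ratio of observed to expected CpG was 0.64 in the α, 0.42 in the β and 0.55 in the γ genes, against 0.54 over all genes and 0.09 over the olfactory receptor genes. The 9 members called at all 4 stages had a median of 0.59 (range 0.43 to 0.90), and the 8 γ genes never called had one of 0.44 (range 0 to 0.83), so the ranges overlapped. The median GC share was 38.5% (α), 39.5% (β) and 42.4% (γ), against 55.1% over all genes. *Pcdhac1* (60.8%) and *Pcdhac2* (52.5%) were highest in the α cluster, and *Pcdhb1* (48.5%) in the β cluster. In the γ cluster *Pcdhga9* (48.8%), never called, was above *Pcdhgb7* (40.2%), called at all 4 stages. Whether GC share bears on the calls was not tested.

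The authors kept uniquely mapped reads, so the uniqueness of the sequence around each gene start was computed. Of the 75-base sequences that start within 500 bp of a gene start, the share that occurs once in the genome was 79.3 to 100% per member, with a median of 92.5% in the α and 100% in the β and γ genes. Over the protein-coding genes of chromosome 18 the median was 100% and the lowest value 46.1%. The lowest members were the 2 records named *Pcdha11*, at 79.6% and 79.3%. In the β cluster the lowest value was 91.6%. Only exact repeats of single sequences were counted. The authors also filtered by mapping quality and pairing, which near-identical copies and the second read can affect. Whether mapping bears on the calls was therefore not tested.

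Outside the clusters, the genes that regulate protocadherins or work with them had promoter peaks in every list, and the protocadherins outside the clusters were called most often at DN. The 10 protocadherins that lie elsewhere, with promoters of their own, were called 7 times in DN, 2 in DP, 2 in SP4 and 3 in SP8 cells. The DN share of 70% (Wilson interval 39.7 to 89.2%) was near the 65.7% of all genes, and the background later was 61.3%, 59.6% and 59.7%. *Pcdh8* and *Pcdh17* were called at all 4 stages, and *Pcdh1* at DN (percentile 41.2) and SP8 (12.4). Called at DN alone were *Pcdh7* (0.083, near the floor of the list), *Pcdh9* (67.9), *Pcdh10* (75.2) and *Pcdh15* (44.1). These genes were not counted in lists of equal length. The olfactory receptor genes, another clustered family chosen one by one in neurons, were called at 12, 6, 9 and 9 of 1128 promoters.

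The cohesin and CTCF genes *Ctcf*, *Rad21*, *Smc3*, *Stag1*, *Nipbl*, *Mau2*, *Wapl*, *Pds5a* and *Pds5b* had a promoter peak at all 4 stages. So did the genes for DNA methylation and silencing, *Smchd1*, *Lrif1*, *Dnmt1*, *Dnmt3a*, *Dnmt3b*, *Setdb1*, *Trim28*, *Wiz*, *Ehmt2* and *Rest*. The genes listed as partners or for processing of the proteins, *Fyn*, *Ptk2*, *Ptk2b*, *Ret*, *Axin1* and *Adam10*, were called in every list too. For the architecture and silencing genes this gave 19 of 19. Beside both groups, 56.8% of all protein-coding genes were called at every stage. *Smchd1* stood at percentile 82.5 in DN, 86.8 in DP, 79.8 in SP4 and 84.4 in SP8 cells, and *Ctcf* at 55.99, 68.5, 70.6 and 61.3.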

How the data were processed

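ATAC-seq peaks of 16 libraries (4 mice at each of 4 stages) were analysed. Per the paper's methods, the authors used BWA to align 75-base paired reads to mm10 and Picard to drop duplicates. They kept uniquely mapped proper pairs of high mapping quality and reduced libraries to the median depth. They then pooled the 4 mice of a stage and called peaks with MACS2 at a false discovery rate of 5%. Pooling hides differences between mice, and a weak peak under the threshold counts as absent. The fold enrichment (a ratio over local background) and the −log10 q-value of each peak are the values deposited by the authors, as is the summit position.

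Here, peaks were counted with at least 1 bp of overlap, zones were set by the middle of the peak, and a promoter was the 200 bp upstream of any GENCODE M21 TSS of a gene. The gene models *Gm42416*, *Gm37013* and *Gm37388*, which join α to γ exons, were left out when peaks were called intronic, a choice made after the annotation was seen. Intervals are exact Poisson or Wilson, at 95%. CpG ratio, GC share, motif matches and unique 75-base sequences were computed in Python 3.11.15 with numpy 2.4.6, pandas 2.3.3, scipy 1.17.1 and numba 0.67.0, and interval and sequence routines were tested on simulated data. No test was made, because each stage has 1 list. The members and gene lists were chosen with earlier results of these data known. The text names each member with a promoter peak, the C-type genes, other called genes of the window, the listed regulators and partners (1 listed gene is not reported here), the 3 highest regions of each zone and the 3 highest single-stage regions per stage within the 3 spans. Alternatives were a stricter q-value, lists of equal length, other flanks, promoters, overlaps, merging and annotations. Reads, clusters of read signal and footprints were not analysed here.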

Additional observations from a re-analysis of the deposited data

How the results depend on the processing

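Of 306 recomputed values, 289 stayed within 1.5 times the reported count or inside its counting interval, and 17 did not. Some of the 289 could not move. The SP8 list is the shortest, so equal lists left its counts as they were. Widened spans do not enter the counts by position, and counts of 0 cannot rise in shortened lists. The tally is therefore no measure of how firm the results are. Taking equal numbers of peaks from each list moved the DN window count to 35, DN peaks of the α span to 2 and of the γ span to 19, DN peaks in exons to 10 and SP4 peaks between genes to 1. The DN count of the γ span thereby went from the highest to the lowest, against 23 (DP), 23 (SP4) and 27 (SP8), and that of the window fell below the 39 of SP8. Equal lists left 0 α promoters called at DN and at any stage, and 14.58% of window regions DN-only, beside 11.08% of all regions. The stricter q-value of 0.001 left 1 SP4 peak between genes, and RefSeq genes left 0 DN peaks and 1 SP4 peak there. With promoters of 500 bp on either side of a TSS, 4 α promoters were called at DN and at any stage, those of *Pcdha7* and *Pcdha8* being added. In the γ cluster this setting added *Pcdhga6* at DN, *Pcdhga12* at DN, SP4 and SP8, and *Pcdhga5* at DP. It gave 16 γ promoters called at any stage and 10 at all 4 stages. With the summit inside the promoter, 1 α and 0 β promoters were called at DN and at any stage. Spans widened by the promoter, an alternative chosen after seeing the data, put the *Pcdhga1* peak in the γ span and gave it 33 DN, 24 DP, 27 SP4 and 28 SP8 peaks. Each move follows from the peaks that a setting removes or from the intervals or annotation it changes. Equal lists kept 104411 of the 150139 DN peaks, those with the lowest q-values. What set the removed peaks apart was not tested. No paired analysis was possible because the authors called peaks on the 4 mice pooled, and for the same reason no mouse could be left out in turn. A peak that is not called may still be open under the threshold, and the number of cells in a mixed sort that carry an open site cannot be told apart from how open it is in each.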
